A study of Mus musculus with 4 samples.

Results

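The white blood cell genes of the islet were followed in 41 members: 10 genes that nearly all white blood cells carry, and 31 genes of macrophages, granulocytes and other myeloid cells. The members were chosen by symbol, and every probe that the array's annotation gave to a member was taken. Of the 41 members, 39 had a probe, among the 17711 genes named on the array. Cd68 and Csf1r were not analysed here. The knockout mice lacked Bmpr1a, a receptor gene of bone morphogenetic protein signalling, under control of Pdx1, which is active in the pancreatic epithelium and in beta cells. Islets of 12-week-old knockout mice (2 arrays) were compared with islets of 12-week-old wild type mice (2 arrays), all on a C57BL/6 background, by RNA hybridised to Illumina bead arrays. Neither the Cre status of the wild type mice nor the origin of the 2 samples per genotype, from different animals or not, is stated in the labels. P-values therefore reflect the spread between these 4 samples alone, possibly technical, and the number of arrays limits the precision.

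Islets hold resident macrophages, which lie beside the endocrine cells and the capillaries, take up debris and present antigen. Other white blood cells are sparse in the islets of healthy mice, while lymph nodes and vessels lie close by in the pancreas. Macrophages and lymphocytes share the machinery of the leukocyte cytoskeleton and surface, such as the phosphatase CD45, but only phagocytes make large amounts of complement C1q, and the adhesion receptor F4/80 and the fractalkine receptor are used to recognise them. A gene of the first kind reports on all white blood cells in a sample together, and one of the second kind mainly on macrophages.

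In knockout islets all 9 tested pan-leukocyte genes fell, by up to 3.99 on the log2 scale for Cd52, where 11.0% of all tested genes were lower, and both lysozyme genes fell too. Of the 7 tested macrophage markers, 0 fell and 2, Adgre1 and Cx3cr1, rose, where 11.0% of all tested genes were lower and 14.5% higher, so these counts on their own are near the background. In a list of further macrophage genes, 8 of 17 tested genes were lower and 0 higher, and of the 12 detected on all arrays 4 were lower. Among myeloid genes that B cells, NK cells or dendritic cells also carry, Clec7a, Fcgr2b and Ctss fell and Fcer1g and Csf2ra rose. The macrophage counts depend on this grouping, since Lyz2 and these shared genes are myeloid too and were counted apart. In bulk samples such as these, fewer cells of a type and less RNA per cell cannot be told apart.

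A probe counts as detected when its deposited detection p was below 0.05, and as tested when it was detected on both arrays of at least 1 genotype. Each array detected 14785 to 16171 of the 46632 probes, with a median raw intensity of 76.8 to 81.5. Of the 59 member probes, 30 were tested, and these represented 27 members. The other 29 probes had raw intensities between 52.2 and 123, and 27 of them were detected on no array. The islet hormone transcripts were near the top of the range on every array, with raw intensities of 40522 and 36437 for Ins2 in knockout islets, against 35327 and 33760 in wild type islets. Bmpr1a itself, by its brighter probe, read 887 and 687 in knockout islets and 793 and 851 in wild type islets (log2 change -0.28, adjusted p = 0.204 in limma). Its position relative to the deletion is not known here, so it does not check the genotype labels.

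Each gene was represented by its brightest tested probe. Over all 9352 tested genes, 11.0% were lower and 14.5% were higher in knockout islets in limma at an adjusted p below 0.05, and the median change was 0.06 on the log2 scale. Among probes 1785 were lower and 2203 higher, and with median scaling in place of quantile normalization 1391 were lower and 3517 higher. A gene that is detected in only 1 genotype enters the test because it differs. Counts are therefore also given for genes detected on all 4 arrays, of which 9.18% were lower and 13.0% higher.

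**Figure D1:**
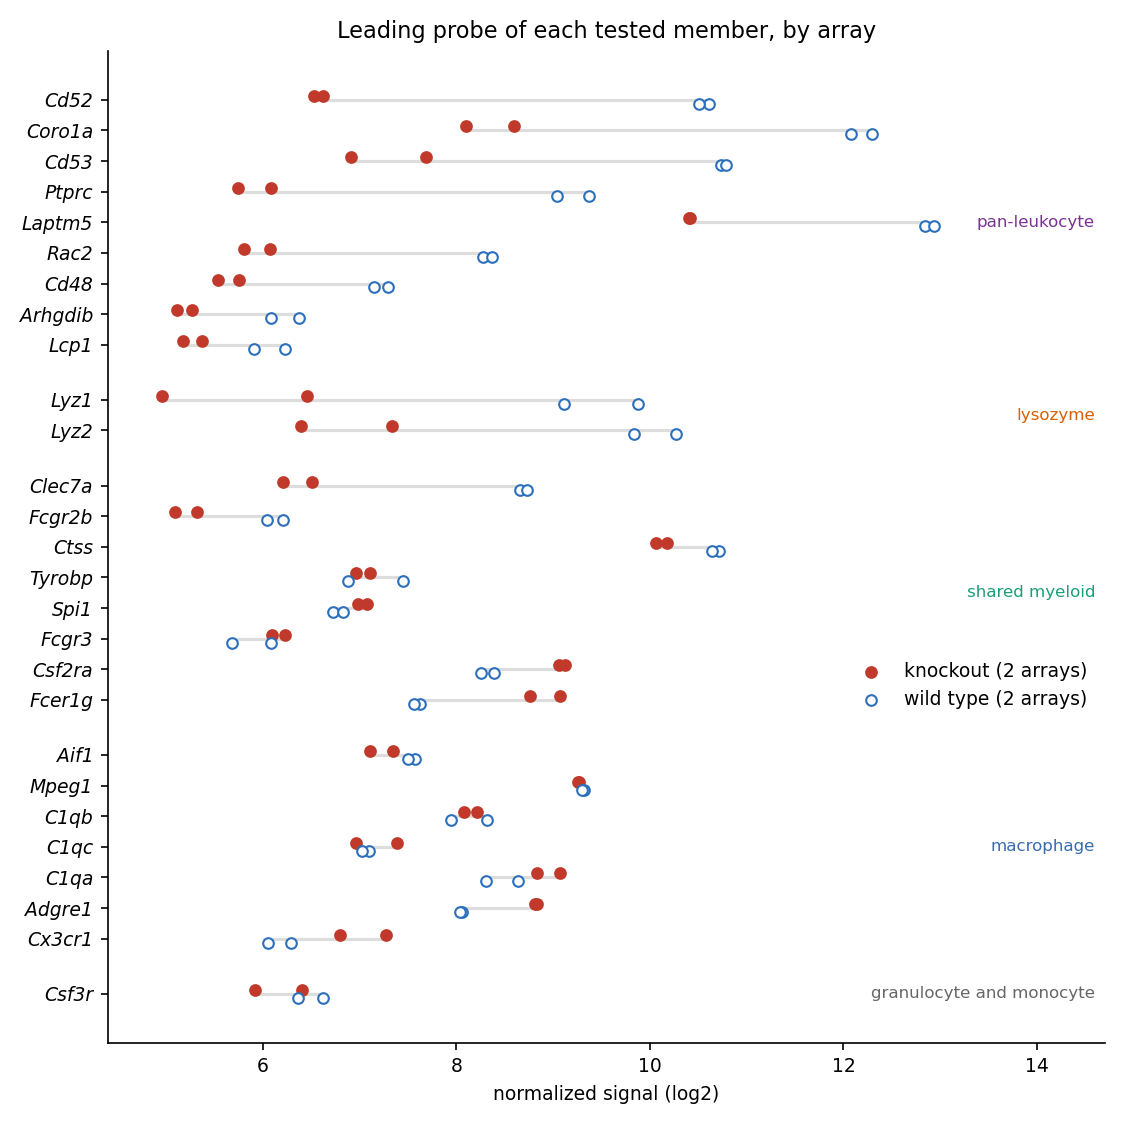
Normalized signal (log2, horizontal axis) of the leading probe of the 27 tested members, by subgroup. Filled points are the 2 knockout arrays and open points the 2 wild type arrays. In the pan-leukocyte and lysozyme rows both knockout points lie left of both wild type points, while in the macrophage rows the points lie close together or, for C1qa, Adgre1 and Cx3cr1, the knockout points lie to the right.

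The pan-leukocyte genes were led by surface and cytoskeletal proteins. Cd52, which encodes a small glycoprotein of the lymphocyte and monocyte surface, had raw intensities of 156 and 148 in knockout islets and 1446 and 1454 in wild type islets. The knockout values were close to each other and far below the wild type values, a change of -3.99 ± 0.13 (SE, log2, adjusted p = 5.19e-05 in limma). Coro1a, an actin regulator of white blood cells, read 350 and 453 in knockout islets, against 3973 and 5007 in wild type islets. Its change was -3.84 ± 0.20 (adjusted p = 0.000142). The other Coro1a probes were not well above background on either knockout array and were at least 9.07-fold and 3.29-fold lower there, so all 3 probes of Coro1a gave the same direction. Such a bound sets the wild type mean against the higher of the probe's own knockout value and the lowest value of any detected probe on that array.

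Cd53, a tetraspanin of the leukocyte membrane, read 180 and 265 in knockout islets and 1572 and 1748 in wild type islets. The knockout arrays differed from each other more than the wild type arrays did, yet the genotypes did not overlap (change -3.46 ± 0.25). Ptprc, which encodes CD45, the phosphatase by which white blood cells are usually recognised, read 107 and 124 in knockout islets, against 533 and 703 in wild type islets. Both knockout values were just inside the detected range, and the change was -3.29 ± 0.18 (adjusted p = 0.000182). The other 3 Ptprc probes were detected on no array.

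Laptm5, a lysosomal membrane protein gene of blood cells, was the brightest of the group and stayed well above background in knockout islets. Its raw intensity was 1564 and 1491 in knockout islets and 6902 and 7989 in wild type islets, a 5.59-fold lower signal (change -2.48 ± 0.12, adjusted p = 0.000134). Rac2, the small GTPase of the blood lineage, read 110 and 123 in knockout islets, against 347 and 383 in wild type islets (change -2.38 ± 0.14). Cd48, a ligand of lymphocyte receptors, read 98.1 and 109 in knockout islets and 196 and 216 in wild type islets (change -1.58 ± 0.14). Arhgdib and the actin bundling protein gene Lcp1 were below detection on both knockout arrays (not well above background), and their signal was at least 1.56-fold and 1.40-fold lower than in wild type islets. Lcp1 lost its call without wild type 2 (change -0.63, adjusted p = 0.109). Itgb2, the shared beta chain of the leukocyte integrins, was detected on no array and was not tested.

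Of the 7 pan-leukocyte genes detected on all 4 arrays, 7 were lower and 0 higher in limma, where the background was 9.18% lower. Their median change was -3.29, beside 0.05 over the 8216 genes detected on all arrays. With Arhgdib and Lcp1, 9 tested members were lower and 0 higher. Of all 10 members, tested or not, 9 had both knockout values below both wild type values, where 23.7% of all measured genes did. The summed normalized signal of the 9 tested members was 2080 and 2314 on the knockout arrays and 16070 and 17400 on the wild type arrays.

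Few of the macrophage markers passed the test. The C1q genes encode the 3 chains of the complement component C1q, which tags debris for uptake, and lie next to each other on chromosome 4. C1qa read 558 and 610 in knockout islets and 422 and 369 in wild type islets, with no overlap, and its change of 0.48 ± 0.17 did not pass the test (adjusted p = 0.0819). C1qb read 347 and 361 in knockout islets, against 355 and 303 in wild type islets. The values overlapped, and the change was 0.02 ± 0.17 with a 95% interval from -0.38 to 0.42. C1qc read 231 and 182 in knockout islets, against 191 and 189 in wild type islets (change 0.12 ± 0.17, interval -0.30 to 0.53). All 3 intervals lie above -0.79, the smallest called change of a pan-leukocyte gene (Lcp1, interval -1.18 to -0.40). Lcp1 was picked by its call and was below detection on both knockout arrays, so this comparison does not separate the groups.

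Adgre1, which encodes F4/80, the surface receptor used to stain mouse macrophages, had raw intensities of 549 and 527 in knockout islets and 306 and 319 in wild type islets. Both knockout values were above both wild type values, and the change was 0.78 ± 0.12 (adjusted p = 0.00699 in limma). This call was lost without either wild type array (adjusted p = 0.0539 and 0.0587), at changes of 0.78 and 0.77. Cx3cr1, the fractalkine receptor gene of monocytes and tissue macrophages, read 217 and 168 in knockout islets, against 138 and 125 in wild type islets. Its genotypes did not overlap either (change 0.87 ± 0.19, adjusted p = 0.0229), but the call was lost without knockout 1, wild type 1 or wild type 2 (adjusted p = 0.0518 to 0.136). It was also lost when all probes were tested (adjusted p = 0.0827).

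Mpeg1, which encodes the pore-forming protein perforin-2 of macrophages, read 732 and 690 in knockout islets and 639 and 670 in wild type islets. After normalization its genotype means were 9.26 ± 0.01 in knockout islets and 9.31 ± 0.02 in wild type islets (SD, log2, n = 2 each; limma adjusted p = 0.817), a change of -0.04 that took the other sign with median scaling (0.22). Aif1, the calcium-binding protein gene known as Iba1, read 199 and 220 in knockout islets, against 239 and 238 in wild type islets (change -0.31 ± 0.14, adjusted p = 0.151), and its other probe gave -0.24. C1qb too took the other sign with cyclic loess (-0.03), and its change was -0.17 without wild type 2. The scavenger receptor genes Msr1, Mrc1 and Cd163, the Fc receptor gene Fcgr1 and the lipid receptor gene Trem2 were detected on no array, so that nothing can be said of their change at these signals.

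All 7 tested macrophage markers were detected on all 4 arrays. Of these, 0 were lower and 2 higher in limma, where the background was 9.18% lower and 13.0% higher, and at an unadjusted p below 0.05 the counts were 0 and 3. Their median change was 0.12. Both knockout values lay below both wild type values in 2 of the 7 and above them in 3, where 28.7% and 39.8% of all tested genes did so. Of the 12 measured markers, 3 were lower and 4 higher in this sense, where 23.7% and 31.0% of all measured genes were. The summed normalized signal of the 7 was 2251 and 2309 on the knockout arrays and 2029 and 1832 on the wild type arrays. Among the leading probes of tested members, the highest pan-leukocyte change was -0.79 and the lowest macrophage change was -0.31. The former is that of Lcp1, which was below detection on both knockout arrays. Itgb2, which was not tested, gave -0.06, inside the macrophage range. The genes were chosen by symbol with earlier results known, and no test of this gap between lists was made. The gap holds only for this choice of genes, since 8 of 17 tested further macrophage genes were lower (background 11.0%).

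**Figure D2:**
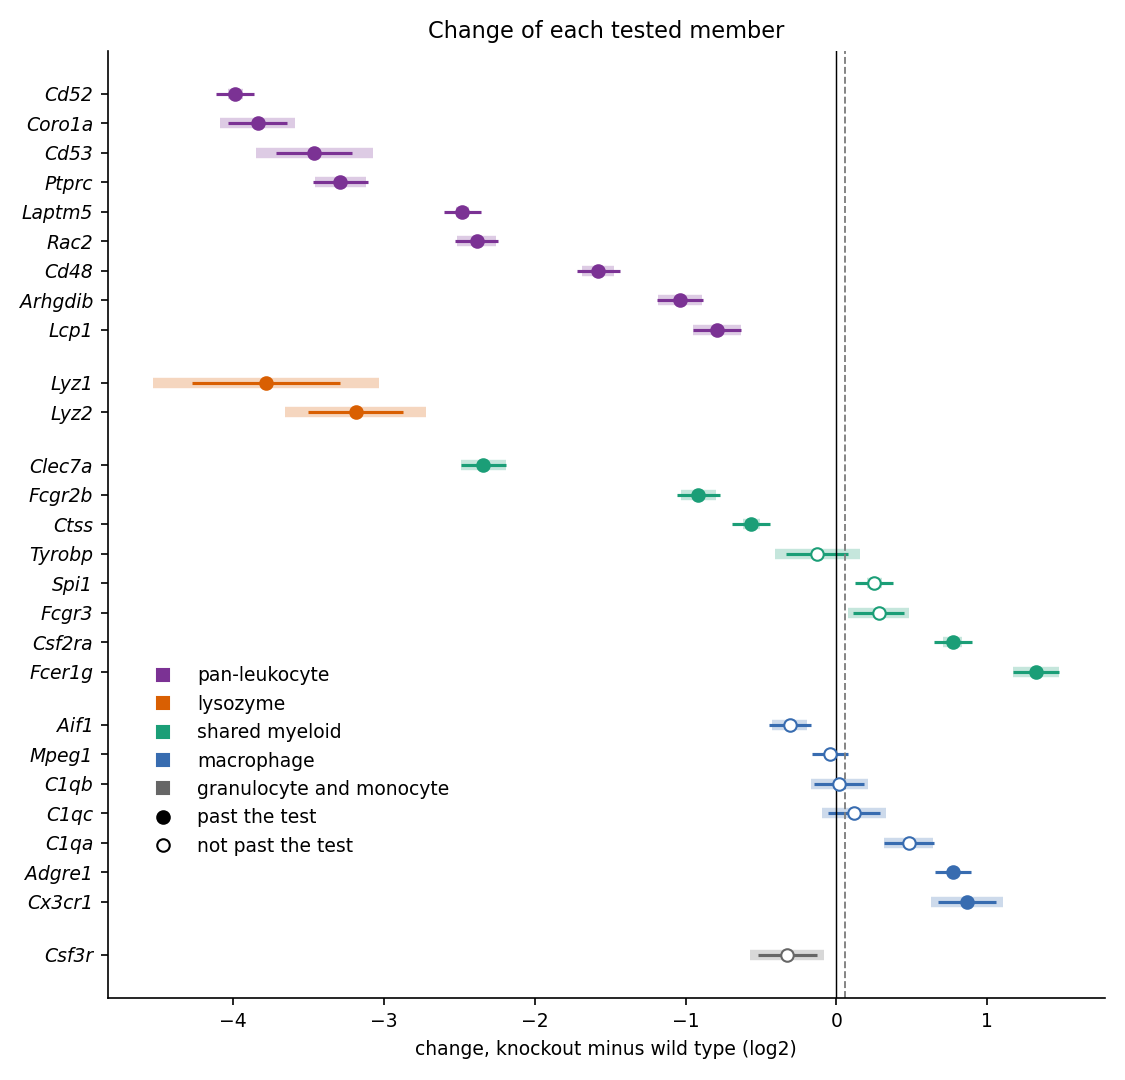
Change of each tested member (log2, knockout minus wild type). Points are the limma estimates with standard errors, filled where the adjusted p was below 0.05, and pale bars span the values when 1 array at a time is left out. The dashed line is the median of all tested genes (0.06). The pan-leukocyte points lie between -3.99 and -0.79, and the macrophage points between -0.31 and 0.87.

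Both lysozyme genes, whose products digest bacterial cell walls, fell. Lyz2, the lysozyme of macrophages and granulocytes, had raw intensities of 141 and 219 in knockout islets and 877 and 1259 in wild type islets, a change of -3.19 ± 0.32 (adjusted p = 0.00141 in limma). Lyz1, in mice made mainly by Paneth cells of the gut, read 71.4 and 144 in knockout islets, against 562 and 965 in wild type islets. It was detected on 1 of the 2 knockout arrays, and the change was -3.78 ± 0.49 (adjusted p = 0.00379). In both genes knockout 1 was the lower knockout array and wild type 2 the higher wild type array. Without knockout 1 the changes were smaller, -2.72 for Lyz2 and -3.04 for Lyz1, and still past the test. A second probe of each gene, dimmer and not tested, also had both knockout values below both wild type values, while the third Lyz2 probe was detected on no array.

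Lyz1 and Lyz2 are neighbouring genes on chromosome 10 with closely similar sequence, so signal at a probe of one may come partly from the other. The likeness extends into the promoters. The 250 bases before each start (RefSeq, GRCm38.p6) were 79.4% identical over an alignment of 252 positions, and 92 of the last 100 bases were the same. These windows are shown with those of Ptprc, which fell, and C1qb, which did not pass the test, since all 4 hold the Ets-type core AGGAAGT on 1 or both strands. PU.1, the myeloid and B cell factor encoded by the member Spi1, binds sites with such a core. Sequences run 5′ to 3′ on the strand of the gene, and capitals mark the core.
Lyz1 (chr10:117292869-117293118, minus strand): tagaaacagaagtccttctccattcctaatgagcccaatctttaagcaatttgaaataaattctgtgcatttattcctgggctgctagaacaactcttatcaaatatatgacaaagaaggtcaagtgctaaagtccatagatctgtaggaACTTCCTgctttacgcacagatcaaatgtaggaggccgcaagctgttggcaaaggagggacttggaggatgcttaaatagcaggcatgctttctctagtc
Lyz2 (chr10:117282273-117282522, minus strand): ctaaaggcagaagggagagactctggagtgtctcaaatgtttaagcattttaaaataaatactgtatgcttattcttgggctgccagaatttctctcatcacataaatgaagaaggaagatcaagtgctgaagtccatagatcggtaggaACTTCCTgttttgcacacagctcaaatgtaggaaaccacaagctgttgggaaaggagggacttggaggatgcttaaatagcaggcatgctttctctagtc
Ptprc (chr1:138175306-138175555, minus strand): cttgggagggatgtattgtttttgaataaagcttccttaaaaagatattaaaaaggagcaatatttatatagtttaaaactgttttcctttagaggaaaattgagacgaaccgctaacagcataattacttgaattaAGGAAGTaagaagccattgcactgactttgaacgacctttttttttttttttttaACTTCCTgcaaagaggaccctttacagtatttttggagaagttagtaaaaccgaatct
C1qb (chr4:136886201-136886450, minus strand): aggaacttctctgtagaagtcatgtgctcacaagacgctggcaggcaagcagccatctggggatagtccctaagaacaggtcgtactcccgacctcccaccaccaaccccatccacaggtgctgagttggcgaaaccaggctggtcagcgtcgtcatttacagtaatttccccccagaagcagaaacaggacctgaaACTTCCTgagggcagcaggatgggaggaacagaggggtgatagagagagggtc

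In both lysozyme windows the core lay 93 bases before the start, on the other strand. The core was present in at least 1 window of 9 of the 31 members with a window in the table (29.0%), and in 8.80% of all 27025 genes. It stood in 4 of 12 members that were lower, in 0 of 3 that were higher and in 2 of 6 that did not pass. The longer GAGGAAGT, which contains that core, was in 2 of the 31 members (C1qc and S100a8) and in 2.79% of all genes. A match is a stretch of letters and not evidence of binding.

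The remaining myeloid genes are shared with B cells, NK cells or dendritic cells, and they moved in both directions. Clec7a, which encodes the fungal glucan receptor dectin-1, read 130 and 147 in knockout islets and 427 and 474 in wild type islets. Its fall was close in size to the median of the tested pan-leukocyte members (change -2.34 ± 0.15, adjusted p = 0.000289 in limma). Ctss, a cathepsin that trims the class II invariant chain, read 1241 and 1252 in knockout islets, against 1552 and 1592 in wild type islets. Its fall was small (change -0.56 ± 0.13, adjusted p = 0.0227) and lost its call without knockout 1, wild type 1 or wild type 2 (adjusted p = 0.0605 to 0.135) and with median scaling (change -0.26, adjusted p = 0.248). Fcgr2b, the inhibitory Fc receptor gene of B cells and myeloid cells, was not well above background on the knockout arrays, with a signal at least 1.45-fold lower than in wild type islets. It did not pass once wild type 1 was left out (adjusted p = 0.0610).

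Fcer1g, the signalling chain of activating Fc receptors, was the member that rose most. Its raw intensity was 533 and 613 in knockout islets and 245 and 246 in wild type islets, a 2.50-fold higher normalized signal (change 1.32 ± 0.15, adjusted p = 0.00225 in limma). This call held in all 14 alternatives, at changes of 1.04 to 1.54. Csf2ra, the alpha chain of the receptor for granulocyte-macrophage colony-stimulating factor, read 647 and 631 in knockout islets, against 368 and 359 in wild type islets (change 0.77 ± 0.13, adjusted p = 0.00853). Its call was lost without wild type 2 (change 0.71, adjusted p = 0.0720).

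The other 3 tested genes of this group did not pass the test. Tyrobp, an adaptor of myeloid and NK cell receptors, read 199 and 182 in knockout islets, against 225 and 177 in wild type islets (change -0.13 ± 0.20). Its knockout values lay between the wild type values. Spi1 read 196 and 184 in knockout islets, against 163 and 173 in wild type islets (change 0.25 ± 0.13, 95% interval -0.05 to 0.56). Fcgr3, the low-affinity activating Fc receptor gene, read 131 and 124 in knockout islets, against 128 and 107 in wild type islets (change 0.28 ± 0.17). Itgam and Itgax, neighbouring integrin alpha chain genes known as Cd11b and Cd11c, and the lectin gene Clec4a2 were detected on no array.

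Of the 7 genes of this shared group detected on all 4 arrays, 2 were lower and 2 higher in limma, and their median change was 0.25. The background was 9.18% lower and 13.0% higher. With Fcgr2b, 3 of 8 tested genes were lower and 2 higher, with a median of 0.06, where 11.0% and 14.5% of all tested genes were. Genes of granulocytes and monocytes were mostly below detection. Csf3r, the granulocyte colony-stimulating factor receptor gene, read 115 and 141 in knockout islets, against 156 and 141 in wild type islets by its only detected probe (change -0.33 ± 0.20, adjusted p = 0.267). S100a8 and S100a9, the calprotectin genes that fill neutrophils, were detected on no array, and Cd14, the endotoxin co-receptor gene of monocytes, was detected on knockout 1 alone, at a raw intensity of 112.

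**Figure D3:**
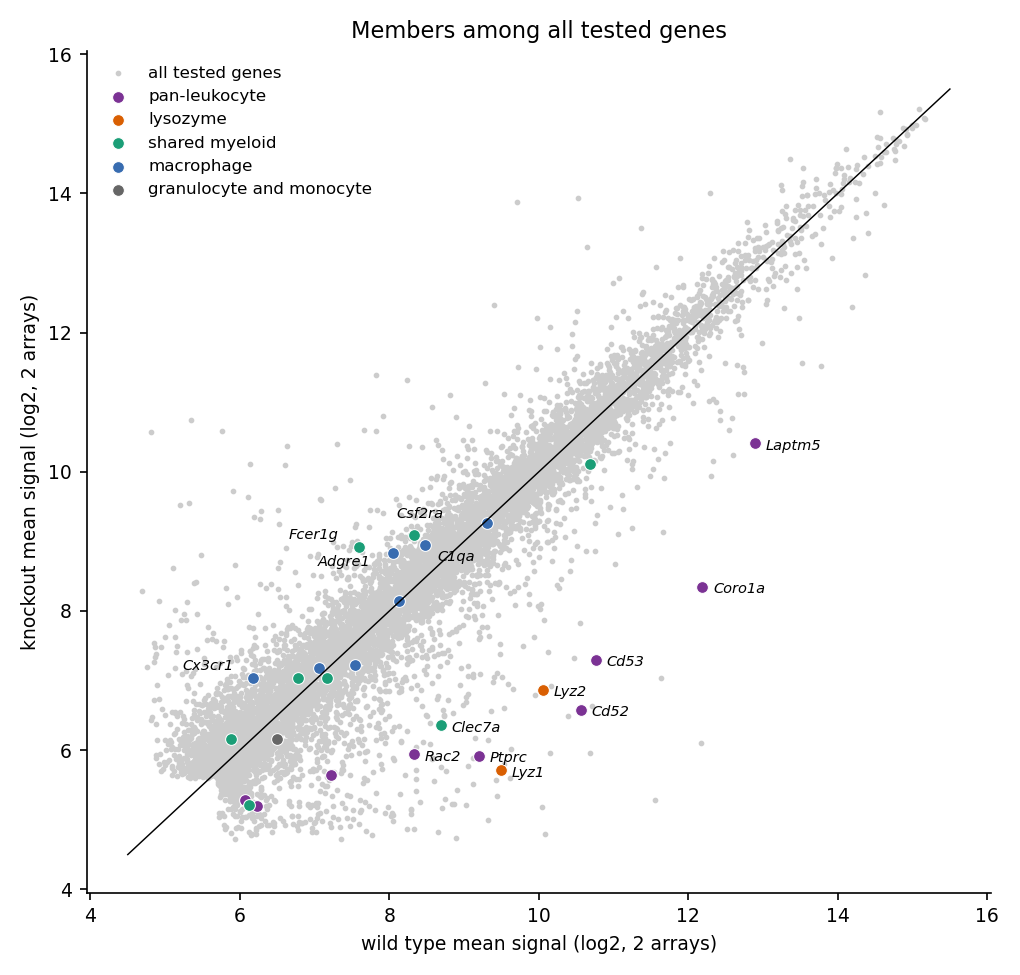
Mean normalized signal of each tested gene in knockout (vertical axis) and wild type islets (horizontal axis), both log2 means of 2 arrays, with members coloured by subgroup and all 9352 tested genes in grey. The line marks equal signal. Pan-leukocyte and lysozyme genes and Clec7a lie below the line by 0.79 to 3.99, the macrophage markers lie within 0.87 of it, and Fcer1g lies 1.32 above it.

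Further genes of the same kinds, listed by cell type and not by how they moved, gave a wider view. For every list below, the background was 11.0% lower and 14.5% higher among tested genes. Among genes detected on all arrays it was 9.18% lower and 13.0% higher. Of 23 tested further pan-leukocyte genes, 20 were lower and 0 higher, with a median of -1.66. Of the 13 detected on all arrays, 11 were lower. Sash3, a signalling adaptor gene of lymphocytes, changed by -3.90 ± 0.21, Was, the Wiskott-Aldrich actin regulator gene, by -3.60 ± 0.19, and Lsp1, a leukocyte actin-binding protein gene, by -3.48 ± 0.21, all past the test in limma. Was and Lsp1 were detected on 1 of the 2 knockout arrays. The integrin chain genes Itgal and Itga4 and the selectin ligand gene Selplg did not pass (changes -0.24, 0.02 and -0.41).

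Further macrophage genes did not move as one. Of 17 tested, 8 were lower and 0 higher, with a median of -0.51, and of the 12 detected on all arrays 4 were lower, with a median of -0.16. Gpnmb, a glycoprotein gene of lipid-laden macrophages, was not well above background on the knockout arrays, with a signal at least 5.45-fold lower than in wild type islets. Cd86, a costimulatory ligand gene that B cells and dendritic cells also carry, changed by -2.44 ± 0.18. It was detected on 1 of the 2 knockout arrays. Lyve1, a hyaluronan receptor gene that lymphatic vessels share with some macrophages, changed by -1.91 ± 0.14. These 3 were named for the size of their change and do not stand for the list. Gpnmb and Cd86 were tested through the wild type arrays alone.

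Of 9 tested genes of the phagocyte oxidase and of phagocyte signalling, 4 were lower and 1 higher (of the 7 detected on all arrays, 3 and 1), with a median of 0.00. Btk, a kinase gene of B cells and myeloid cells, was not well above background on the knockout arrays, at least 6.53-fold lower than in wild type islets. Irf8, a factor of B cells, dendritic cells and monocytes, changed by -2.77 ± 0.15, and Irf5 by -1.58 ± 0.15. The exception upward was Cebpb, at 0.66 ± 0.13. Of 3 tested colony-stimulating factors, chemokines and their receptors, 1 was lower and 1 higher. Csf1, the growth factor gene on which macrophages depend, rose by 1.15 ± 0.23 (adjusted p = 0.0163 in limma), and its other tested probe gave 0.55. Its raw intensities were 157 and 217 in knockout islets, which differed from each other, and 119 and 110 in wild type islets, close to background. Cx3cl1, which encodes fractalkine, the ligand of the Cx3cr1 product, fell by 0.64 ± 0.13 (adjusted p = 0.0193). Il34, Csf2, Csf3, Ccl2 and Ccr2 were not tested. Of 5 tested genes of macrophage activation, the chemokine gene Ccl5 was lower and 0 were higher, with a median of -0.37 (of the 4 detected on all arrays, 0 passed, with a median of -0.32).

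**Figure D4:**
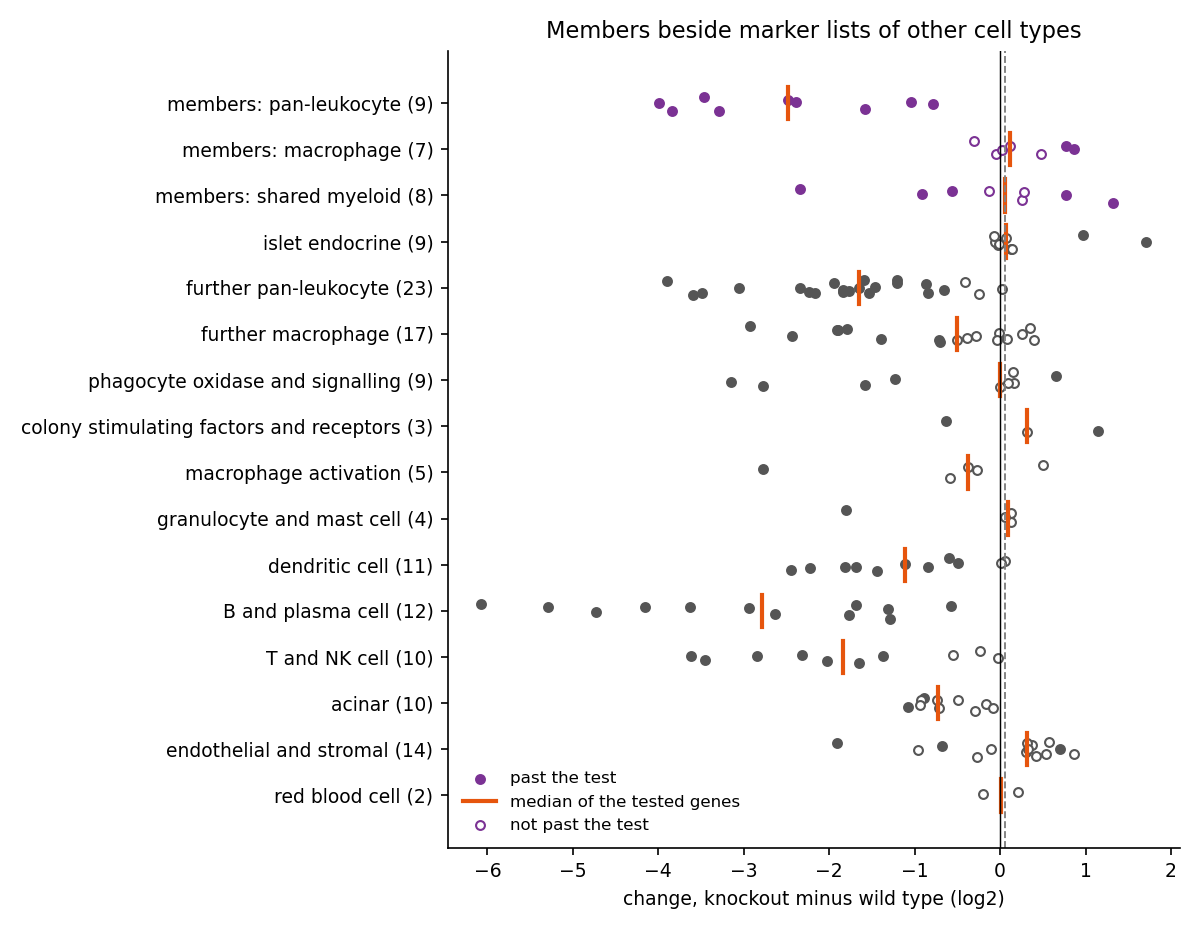
Change of every tested gene (log2, knockout minus wild type) in the larger member groups and in lists of other cell types, with the number of tested genes in brackets. Filled points passed the limma test, open points did not, orange bars are medians and the dashed line is the median of all tested genes (0.06). The pan-leukocyte, B and plasma cell, and T and NK cell rows extend to the left. The medians of the macrophage members, the islet endocrine list and the red blood cell list lie within 0.12 of 0. Those of the further macrophage and macrophage activation lists lie at -0.51 and -0.37.

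Markers of other white blood cells were counted in the same way. Of 12 tested B and plasma cell genes, 12 were lower, but 9 of them were tested through the wild type arrays alone. The 3 detected on all arrays were all lower, with a median of -1.77. The summed normalized signal of the 12 was 495 and 761 on the knockout arrays and 10224 and 9294 on the wild type arrays, and rests mostly on genes that entered the test because they were detected in wild type islets. Of 10 tested T and NK cell genes, 7 were lower and 0 higher, with a median of -1.84, and a sum of 3760 and 3370 on the knockout arrays against 4557 and 5273 on the wild type arrays. All 7 of these were tested through the wild type arrays alone, and of the 3 genes detected on all arrays (Cd8b1, Thy1 and Klrb1c) 0 passed, with a median of -0.24. Most of the T and NK cell sum came from the brighter Cd8b1 probe. It had raw intensities of 3784 and 3036 in knockout islets and 2693 and 3468 in wild type islets (change -0.02 ± 0.15). The other tested Cd8b1 probe gave -0.91, so the gene is not read here as unchanged.

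The dendritic cell list, which holds the class II genes, had 9 of 11 tested genes lower (of 9 detected on all arrays, 7), a median of -1.11 and sums of 7243 and 8906 on the knockout arrays against 20809 and 22922 on the wild type arrays. The class II genes were all among the 9 lower genes. The 2 tested genes that did not pass were Zbtb46 and Siglech (changes 0.06 and 0.01). The counts, median and sums of this list therefore do not stand for dendritic cells alone. The conventional dendritic cell markers Xcr1 and Clec9a and the B cell factor gene Pax5 were not tested. Of 4 tested granulocyte and mast cell genes, Prg2 was lower and 0 were higher, with a median of 0.09 (of the 3 detected on all arrays, 0 passed). The part of these cell types in the fall of the pan-leukocyte, lysozyme and shared myeloid genes was not tested.

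Marker lists of the pancreas itself and of blood were set beside these. Of 10 tested acinar genes, 2 were lower, with a median of -0.72 and sums of 64060 and 69024 on the knockout arrays against 77783 and 93209 on the wild type arrays. Both knockout values lay below both wild type values in 8 of the 10 and above them in 0. Of all tested genes, 28.7% and 39.8% did so. Of 14 tested endothelial and stromal genes, 2 were lower and 1 higher, with a median of 0.32. Among the 13 detected on all arrays, 1 was lower and 1 higher. Both knockout values lay below both wild type values in 4 of the 14 and above them in 8, beside the same background shares. Lyve1, which was lower, is also in the further macrophage list. Of 9 tested islet endocrine genes, 2 were higher and 0 lower, with a median of 0.07. The 2 tested red blood cell genes, Hbb-bt and Hba-a1, had changes of -0.20 and 0.21 and did not pass.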

How the data were processed

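RNA from islets of 2 knockout and 2 wild type samples was hybridised as biotin-labelled cRNA, per the labels. Group and replicate come from the sample labels. Per the file headers, the deposited scanner table holds, per probe and array, the linear mean intensity of the beads, its standard error over beads, the number of beads (12 to 58 for member probes) and a detection p-value. The second table deposited by the authors holds log2 values. Set against the scanner table they keep the order of the raw intensities on every array and are not centred. Their scaling method was not given in the sources used here. Direction needs no choice, since each array holds 1 sample.

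Background was corrected with limma 3.58.1 (R 4.3.3) by normexp, inferred from the detection p-values, and an offset of 16, which shrinks changes of dim probes, followed by log2 and quantile normalization. The 15639 probes detected (p below 0.05) on each array of 1 or both genotypes were tested by lmFit and eBayes without a block (6.24 degrees of freedom), with Benjamini-Hochberg adjustment over all of them and a threshold of 0.05. Fits were checked on simulated data. Each change is a log2 difference, knockout minus wild type, with the standard error (SE) of the fit, and intervals are at 95%.

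Symbols came from the platform annotation (29965 probes with 1 symbol, 10 with several and 16657 not listed). All 41 members matched a gene of the RefSeq table of GRCm38.p6. Of 237 entries in 13 lists of other genes, 210 had a probe. The rule for names took every member, Bmpr1a, the hormone genes and the 3 genes of each list that changed most among those past the test without overlap between genotypes. Where fewer than 2 passed, it took the 2 largest tested changes, as for Hbb-bt and Hba-a1. Gcg, Sst, Ppy, Arg1 and the genes of other cell types that it picks are otherwise given only within their lists' counts. The other non-passing or untested list genes, Cebpb, and Cd8b1 were named after their values were seen. The members and lists were chosen with earlier results of these data known. In raw, unscaled intensities, bead noise (1.96 standard errors) was exceeded by 35.9% of tested probes between the knockout arrays. Between the wild type arrays the share was 26.8%. This check cannot tell separate samples from repeat hybridisations of 1 sample, and each array was counted as 1 sample. Alternatives were no background correction, an offset of 50, median scaling, cyclic loess, the authors' values, other filters, the replicate number as a block, an intensity trend, another choice of probe and leaving out each array.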

Additional observations from a re-analysis of the deposited data

How the results depend on the processing

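Of the 30 tested member probes, 30 kept their side of the threshold without background correction, with an offset of 50, with cyclic loess, with the authors' values, with a filter blind to genotype, with the replicate block, with an intensity trend and without knockout 2. Direction was kept there too, except by C1qb with cyclic loess (-0.03) and without knockout 2 (-0.05). Among members that did not pass, the sign also changed for Mpeg1 with median scaling (0.22), C1qc without knockout 1 (-0.09), Tyrobp without wild type 1 (0.15) and C1qb without wild type 2 (-0.17). Calls lost or gained elsewhere were those of Lcp1, Adgre1, C1qa, Cx3cr1, Ctss, Fcgr2b and Csf2ra. C1qa passed with median scaling (0.74, adjusted p = 0.0108), which moved the median of all tested probes to 0.21, against 0.05 with quantile normalization, and gave 1391 lower and 3517 higher probes, against 1785 lower and 2203 higher with quantile normalization. With all probes tested, 1 macrophage member was higher, and Lcp1 did not pass (adjusted p = 0.0529). With detection p below 0.01 on all 4 arrays, 16 members were tested and 1012 probes were lower. The 6 lower members were 4 pan-leukocyte, 1 shared myeloid and 1 lysozyme gene. Higher were 1 macrophage member and the shared myeloid genes Fcer1g and Csf2ra. With 1 array left out at a time, 787 to 1790 probes were lower and 677 to 2041 higher. Over the same fits 8 to 9 pan-leukocyte members, 1 to 3 shared myeloid members and 12 to 14 of all members were lower, and 0 to 2 macrophage members, 1 to 2 shared myeloid members and 1 to 4 of all members were higher. The array left alone in its genotype is assumed there to vary like the others. The same replicate numbers gave no sign of pairing, since deviations of same-numbered arrays correlated at 0.02 across probes, and with the replicate block 9 pan-leukocyte members were lower and 2 macrophage members higher, as without it. Signal over background limits the 12 measured members that were not tested.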
